A study of Mus musculus with 6 samples.

Results

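The subject here is a set of 10 genes for channels that open to stretch, flow or released ATP, chosen by symbol: Piezo1, Piezo2, Trpv4, Kcnk2, Pkd1, Pkd2, Gja1, Panx1, Panx3 and P2rx7. All 10 were found among the 55484 genes of the deposited tables, and all 10 were among the 15508 genes that the authors tested. The tables compare femoral bone RNA of 3 mice given free use of a running wheel with that of 3 sedentary mice in ordinary cages. Both groups were male wild-type C57BL/6 mice on normal chow, housed singly for 6 weeks from 6 weeks of age and sampled at 12 weeks. Each gene has 1 pooled FPKM per group, that is, a fragment count divided by transcript length and by library size, with an interval around it. The level of that interval is not stated in the headers. No value of a single mouse is given, so no SD can be printed and no difference can be set against the spread between mice.

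Bone cells sense load through several kinds of membrane protein. Piezo channels let calcium in when the membrane is stretched or sheared, and TRPV4 lets it in under flow and osmotic stress. The potassium channel TREK-1, made by Kcnk2, opens under membrane tension. Polycystin-1 and polycystin-2 form a receptor and channel complex found on primary cilia. Connexin 43, made by Gja1, joins osteocytes to each other through gap junctions and also forms hemichannels. Pannexins form large-pore channels that release ATP, and P2X7, made by P2rx7, is a cation channel that extracellular ATP opens.

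None of the 10 channel genes was called different between running and sedentary mice at q under 0.05 in the authors' deposited table. Over all 15508 tested genes 146 were called, which is 0.941%. The log2 fold, taken as running over sedentary after adding 0.1 to each FPKM, was positive for 9 of the 10 channel genes and negative for Panx1, while 48.2% of all tested genes had a positive log2 fold. The folds ran from -0.23 for Panx1 to 0.34 for Trpv4. Over the 9 channel genes that reached 1 FPKM in a group the median log2 fold was 0.11, and over the 14488 tested genes at that level it was -0.0075. Keeping only channel genes with lower bounds above 0 in both groups, which of these 9 leaves out Piezo1, gave a median of 0.18. That setting was chosen after the data were seen. The smallest log2 fold of any gene that the authors called was 0.38 in size, above that of every channel gene. The intervals of the groups overlapped for all 10 channel genes, and over all tested genes they were apart for 0.574%. Before adjustment, p was under 0.05 in the authors' deposited table for 1 of the channel genes, Pkd2, and for 5.65% of all tested genes.

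**Figure D1:**
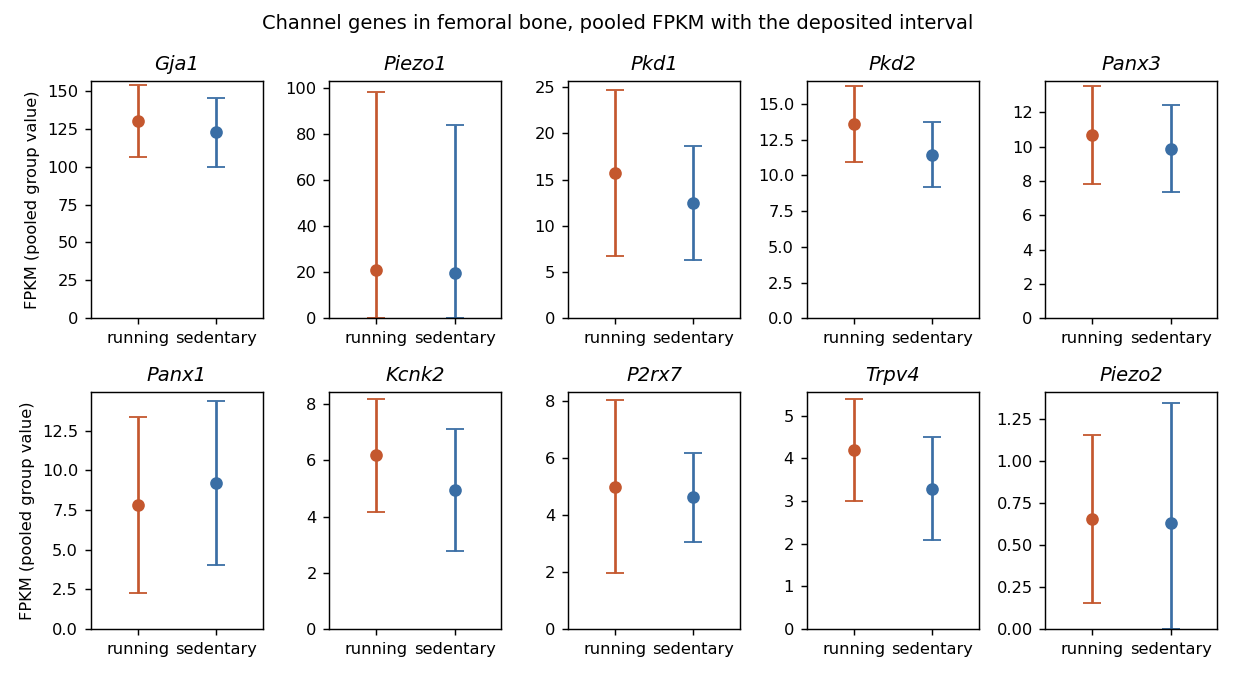
Pooled FPKM of each channel gene (y axis, from 0, a scale of its own per gene) in running and sedentary mice (x axis), with points for the group value and bars for the authors' interval. Bars of the groups overlap in every panel, and those of Piezo1 reach 0 in both groups.

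**Figure D2:**
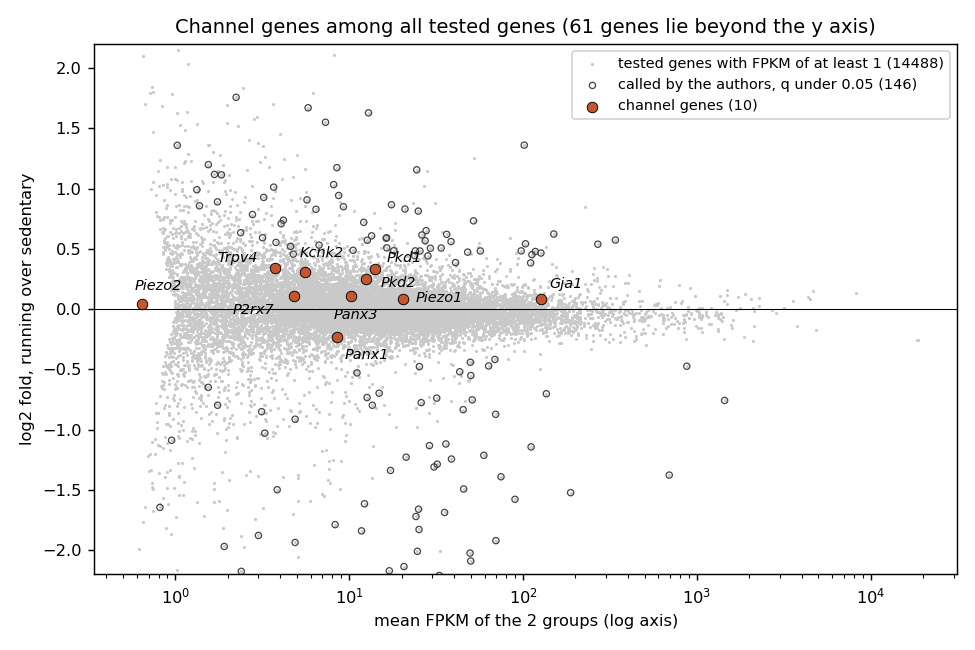
Log2 fold of running over sedentary mice (y axis) against mean FPKM of the groups (x axis, log scale) for tested genes that reached 1 FPKM (grey), genes called by the authors (open circles) and the 10 channel genes (orange). The channel genes lie between -0.23 and 0.34, inside the band of uncalled genes, and 61 genes fall outside the plotted range.

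By level per length, connexin 43 stood apart from the other channels. Gja1 averaged 126 FPKM over the groups, followed by Piezo1 at 20.4, Pkd1 at 14.1, Pkd2 at 12.5, Panx3 at 10.3, Panx1 at 8.52, Kcnk2 at 5.57, P2rx7 at 4.81, Trpv4 at 3.74 and Piezo2 at 0.643. Of the 9 neighbouring pairs in this order, 2 had intervals apart in both groups, Gja1 above Piezo1 and Trpv4 above Piezo2. In the other 7 pairs the intervals overlapped in both groups, so the order of those neighbours is not resolved. Genes farther apart in the order could still be separate. The Pkd2 intervals, 11.0 to 16.3 in running and 9.19 to 13.7 in sedentary mice, lay above those of Trpv4. These were 3.00 to 5.40 in running and 2.08 to 4.49 in sedentary mice. Gja1 lay at percentile 96.0 of the mean FPKM of all tested genes and Piezo2 at percentile 1.77.

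Promoter windows are shown for channel genes picked by their values, none of them called. They are Pkd2, with the smallest p, Trpv4 and Pkd1, with the largest log2 folds, and Gja1, with the highest level. RefSeq windows on GRCm38.p6, from 250 bases before to 50 bases after a start site, were on hand for 8 of the 10 genes, in 12 windows. The windows shown are chr5:104459207-104459506 on the plus strand for Pkd2, chr17:24549700-24549999 on the plus strand for Pkd1, chr5:114658372-114658671 on the minus strand for Trpv4 and chr10:56377050-56377349 on the plus strand for Gja1. Each runs 5′ to 3′ along its gene, and capitals mark matches, on either strand, to GGAATG (the TEAD motif, read by the DNA partners of YAP and TAZ), TGANTCA (AP-1), TGACGTCA (the cyclic AMP response element), GGGCGG (Sp1) or ACCACA (RUNX). No matches of different motifs overlapped in these windows.
Pkd2: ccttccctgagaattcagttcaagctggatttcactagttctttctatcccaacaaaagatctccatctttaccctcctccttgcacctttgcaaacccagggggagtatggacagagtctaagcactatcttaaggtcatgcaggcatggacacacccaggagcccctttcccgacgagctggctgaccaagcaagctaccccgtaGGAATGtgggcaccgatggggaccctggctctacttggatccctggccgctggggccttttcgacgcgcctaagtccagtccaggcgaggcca
Pkd1: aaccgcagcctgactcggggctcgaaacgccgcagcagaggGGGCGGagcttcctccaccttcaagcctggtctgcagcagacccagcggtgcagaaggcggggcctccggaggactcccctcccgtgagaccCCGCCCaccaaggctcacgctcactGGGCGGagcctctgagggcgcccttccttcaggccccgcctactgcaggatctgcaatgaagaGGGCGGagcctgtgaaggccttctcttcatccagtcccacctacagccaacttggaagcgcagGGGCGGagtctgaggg
Trpv4: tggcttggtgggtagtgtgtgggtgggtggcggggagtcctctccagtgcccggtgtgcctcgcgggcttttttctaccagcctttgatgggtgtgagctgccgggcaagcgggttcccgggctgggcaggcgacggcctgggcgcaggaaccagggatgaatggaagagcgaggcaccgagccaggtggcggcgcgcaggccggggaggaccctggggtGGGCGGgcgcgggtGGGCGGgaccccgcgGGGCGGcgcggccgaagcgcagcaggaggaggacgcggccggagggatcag
Gja1: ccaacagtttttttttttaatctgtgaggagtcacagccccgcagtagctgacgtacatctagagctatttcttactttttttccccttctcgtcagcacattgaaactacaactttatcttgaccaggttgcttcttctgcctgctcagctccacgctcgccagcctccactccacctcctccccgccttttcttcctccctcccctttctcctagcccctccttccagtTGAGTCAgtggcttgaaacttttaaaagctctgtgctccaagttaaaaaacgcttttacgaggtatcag
The Pkd2 window held 1 TEAD match, 43 bases before the start site, and 14.7% of the 32841 windows in the table held at least 1. The Gja1 window held 1 AP-1 match, 19 bases before the start site, against 7.81% of all windows. Sp1 matches numbered 5 in the Pkd1 window and 3 in the Trpv4 window. At least 1 was held by 35.7% of all windows, and the share with several was not computed. The GC content was 66.7% for Pkd1 and 73% for Trpv4, where the median of all windows was 52.7%. Taking the window farthest upstream of each of the 8 genes, 4 held an Sp1 match, 2 a TEAD match and 2 an AP-1 match. A RUNX match was held by 1 of them, that of Panx1, and a cyclic AMP response element by 0. Over all windows the shares were 16.8% for RUNX and 1.79% for the cyclic AMP response element. A match describes letters only and is not a shown binding site.

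The windows also differed in CpG content. The ratio of observed to expected CpG was 0.833 for Trpv4, 0.541 for Pkd1, 0.544 for Gja1 and 0.399 for Pkd2, where the median of all windows was 0.384. Taking the outermost window of each gene, 3 of the 8 reached 0.6, those of Panx1 (0.889), Piezo1 (0.834) and Trpv4, against 35.8% of all windows. Kcnk2 has 4 windows, of which the outermost had a ratio of 0.435 and the 2 farthest downstream 0.842 and 0.978. P2rx7 has 2, with 0.380 and 0.200.

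Of the genes listed here as mechanically gated channels, Trpv4 and Kcnk2 had log2 folds above 0.3 and the Piezo genes below 0.1. None was called. Trpv4 (ENSMUSG00000014158; chromosome 5, 114622152 to 114658421, minus strand, GRCm38) encodes a calcium-permeable channel that chondrocytes and bone cells use in sensing flow and osmotic stress. It stood at 4.20 FPKM (interval 3.00 to 5.40) in running mice, against 3.29 FPKM (2.08 to 4.49) in sedentary mice. The running value was the higher and the intervals overlapped over most of their width. The log2 fold was 0.34, and the authors' deposited table gave p = 0.0574 and q = 0.927. Setting the lowest running bound over the highest sedentary bound, and the reverse, spans folds of 0.668 to 2.59.

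Kcnk2 (ENSMUSG00000037624; chromosome 1, 189207930 to 189402273, minus strand) was listed at 6.18 FPKM (4.18 to 8.18) in running mice, against 4.96 FPKM (2.79 to 7.14) in sedentary mice. Its log2 fold was 0.31, with q = 0.9997 in the authors' deposited table, and the bounds span folds of 0.585 to 2.93. An antisense gene, A430027H14Rik, shares 604 exonic bases with it and stood at 0.438 FPKM in running and 0.459 FPKM in sedentary mice. A processed pseudogene on the same strand, Pdcd5-ps, lies within Kcnk2 and shares 0 exonic bases with it. Its level was higher than that of Kcnk2, at 44.0 FPKM in running and 47.3 FPKM in sedentary mice. The kit marks strand, but the sources used here do not say whether the authors' counting used it.

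Piezo1 (ENSMUSG00000014444; chromosome 8, 122481698 to 122551329, minus strand) encodes the stretch-gated cation channel that osteoblast-lineage cells, endothelium and red cells use. It stood at 21.0 FPKM in running mice, with an interval of 0 to 97.9, against 19.8 FPKM in sedentary mice, with an interval of 0 to 83.9. The half-width of the interval was 233% of the FPKM in running and 212% in sedentary mice, where the medians over tested genes with FPKM of at least 1 were 32.9% in running and 33.2% in sedentary mice. With a log2 fold of 0.09 and q = 0.9997 in the authors' deposited table, the values are nearly equal, but intervals that reach 0 set no lower limit to the fold in either direction.

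The deposited locus of Piezo1 is far longer than the gene. GENCODE places Piezo1 within 69.6 kb, whereas the tables list it at chromosome 8, 119910360 to 124345724, a stretch of 4.44 Mb that they give for 210 genes, 71 of them tested. A single GENCODE transcript of the gene listed as Galnt2l (ENSMUSG00000092329) runs from 119910841 to 124345722 on the opposite strand, with Piezo1 inside an intron. Of the 68 tested genes at this locus with FPKM of at least 1, 67 had a lower bound of 0 in a group, that is 98.5%, against 9.40% of the 14420 such genes elsewhere. The median half-width at the locus was 255% of the FPKM in both groups. None of the 71 tested genes there had p under 0.05 in the authors' deposited table, and the smallest p was 0.162. What part the shared locus has in these widths was not tested. Ctu2, on the opposite strand, shares 2441 exonic bases with Piezo1 and stood at 9.53 FPKM in running and 12.0 FPKM in sedentary mice.

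**Figure D3:**
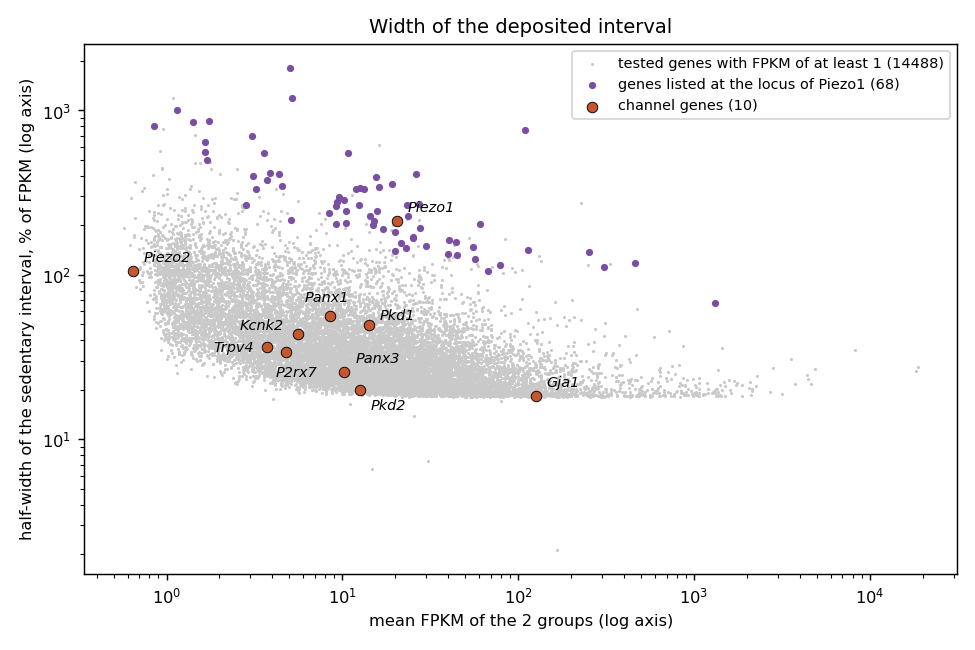
Half-width of the authors' interval in sedentary mice, in percent of the FPKM (y axis, log scale), against mean FPKM of the groups (x axis, log scale) for tested genes that reached 1 FPKM (grey), the 68 of them listed at the locus of Piezo1 (purple) and the 10 channel genes (orange). Piezo1 lies at 212% with the purple genes, while Gja1 lies at 18.4% and Pkd2 at 19.9%.

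Piezo2 (ENSMUSG00000041482; chromosome 18, 63010213 to 63387183, minus strand), the Piezo channel known for touch and body position sense in sensory neurons, was the lowest of the 10 genes. It stood at 0.654 FPKM (0.151 to 1.16) in running mice, against 0.633 FPKM (0 to 1.34) in sedentary mice. The log2 fold was 0.04, with q = 0.9997 in the authors' deposited table, and the intervals covered nearly the same range.

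Both polycystin genes had higher values in running mice without being called. Pkd1 (ENSMUSG00000032855; chromosome 17, 24549834 to 24596508, plus strand) encodes the large receptor-like partner, and loss of it in bone-lineage cells is known to lower bone mass in mice. It stood at 15.8 FPKM (6.78 to 24.7) in running mice, against 12.5 FPKM (6.30 to 18.7) in sedentary mice, a log2 fold of 0.33 with p = 0.197 and q = 0.9997 in the authors' deposited table. The bounds span folds of 0.363 to 3.92. Pkd1 and Tsc2, a growth-control gene on the opposite strand, overlap by 693 exonic bases and share a deposited locus. Tsc2 stood at 20.1 FPKM in running and 16.3 FPKM in sedentary mice, a log2 fold of 0.29.

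Pkd2 (ENSMUSG00000034462; chromosome 5, 104459450 to 104505819, plus strand) encodes the channel subunit. It stood at 13.6 FPKM (11.0 to 16.3) in running mice, against 11.5 FPKM (9.19 to 13.7) in sedentary mice. The log2 fold was 0.25. The authors' deposited table gave p = 0.02995, the lowest of the 10 channel genes, and q = 0.726. Its test statistic in the authors' deposited table was 1.24. The interval half-widths were 19.4% in running and 19.9% in sedentary mice. They lay at percentiles 5.51 and 7.35 of tested genes with FPKM of at least 1, so the deposited interval is among the narrower ones. Its width is not a shown spread between mice. The bounds span folds of 0.799 to 1.77. No annotated gene overlaps it in GENCODE.

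Gja1 (ENSMUSG00000050953; chromosome 10, 56377330 to 56402513, plus strand) had the narrowest deposited interval of the channel genes, relative to its level. It stood at 129.9 FPKM (106 to 154) in running mice, against 123 FPKM (100.1 to 145) in sedentary mice, a log2 fold of 0.08 with p = 0.433 and q = 0.9997 in the authors' deposited table. Its half-width was 18.4% of the FPKM in both groups, and the bounds span folds of 0.731 to 1.54.

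The pannexins stood at like levels and had folds of opposite sign. Panx3 (ENSMUSG00000011118; chromosome 9, 37659902 to 37669235, minus strand), the pannexin of osteoblasts and chondrocytes, stood at 10.7 FPKM (7.83 to 13.5) in running mice, against 9.89 FPKM (7.34 to 12.4) in sedentary mice. Panx1 (ENSMUSG00000031934; chromosome 9, 15002128 to 15045478, minus strand), the widely expressed pannexin, stood at 7.83 FPKM (2.26 to 13.4) in running mice, against 9.21 FPKM (4.06 to 14.4) in sedentary mice. The log2 folds were 0.11 for Panx3 and -0.23 for Panx1, each with q = 0.9997 in the authors' deposited table, and the difference between these folds was not tested. The Panx1 interval was the wider, at 71.1% of the FPKM in running and 55.9% in sedentary mice, against 26.7% in running and 25.8% in sedentary mice for Panx3. The bounds span folds of 0.629 to 1.84 for Panx3 and 0.158 to 3.30 for Panx1.

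P2rx7 (ENSMUSG00000029468; chromosome 5, 122643911 to 122691432, plus strand) encodes a receptor that macrophages, osteoclasts and osteoblasts carry. It stood at 4.996 FPKM (1.97 to 8.02) in running mice, against 4.62 FPKM (3.05 to 6.19) in sedentary mice, a log2 fold of 0.11 with q = 0.9997 in the authors' deposited table. The running interval contained the whole sedentary interval, and the bounds span folds of 0.318 to 2.63.

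The low values of single-exon genes moved in steps of 1 fragment, from which the deepest library of each group held, in units of 1000000, about 17.3 fragments in running and 16.4 in sedentary mice. If every library were that deep and all fragments fell on the longest coding transcript, Gja1 would rest on about 19787 fragments in running and 17721 in sedentary mice, and Piezo2 on about 356 in running and 327 in sedentary mice. These are rough figures, and upper ones only if that reading holds. By the same estimate Piezo1 had 8695 fragments in running and 7767 in sedentary mice, more than Pkd2 with 3515 in running and 2808 in sedentary mice, while its interval relative to its level was 12.0 times as wide in running and 10.7 times as wide in sedentary mice. Trpv4 had about 650 in running and 483 in sedentary mice.

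Among 110 related genes in 12 lists of channel relatives and partners, none of the 58 tested genes was called. The median log2 fold of these 58 was 0.03, with 39 positive. Over all tested genes the median was -0.0067, with 48.2% positive. Before adjustment, p was under 0.05 in the authors' deposited table for 4 of them, all with a higher value in running mice, and 3.42% of all tested genes met that p and direction. P2rx2, an ATP-gated channel best known from neurons, stood at 1.48 FPKM in running and 0.945 FPKM in sedentary mice (p = 0.0287, q = 0.719 in the authors' deposited table). Slco2a1, which takes up prostaglandins, stood at 3.07 FPKM in running and 2.44 FPKM in sedentary mice (p = 0.0248, q = 0.676 in the authors' deposited table). Adcy6, an adenylyl cyclase that calcium inhibits, stood at 31.2 FPKM in running and 26.4 FPKM in sedentary mice (p = 0.0412, q = 0.834 in the authors' deposited table). Kcnk1, a two-pore potassium channel, stood at 9.75 FPKM in running and 7.94 FPKM in sedentary mice (p = 0.0489, q = 0.883 in the authors' deposited table).

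Of 9 other mechanically gated channel genes, 3 were tested. The other 6, Tmc1, Tmc2, Kcnk4, Kcnk10, Tmem63c and Tmem150c, lay between 0 and 0.341 FPKM. Tmem63a, a cation channel gated by osmotic stress and stretch, stood at 25.6 FPKM in running and 24.2 FPKM in sedentary mice, its relative Tmem63b at 11.9 FPKM in running and 10.1 FPKM in sedentary mice, and Lrrc8a, a subunit of the volume-regulated anion channel, at 7.20 FPKM in running and 6.17 FPKM in sedentary mice. All 3 tested genes had a positive log2 fold, between 0.08 and 0.24. Of the Piezo regulators, Mdfic and Mdfi, whose proteins bind Piezo channels, stood at 12.4 and 13.02 FPKM in running mice, against 12.3 and 12.1 FPKM in sedentary mice. Atp2a2, the calcium pump of the endoplasmic reticulum, stood at 57.0 FPKM in running and 57.9 FPKM in sedentary mice.

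Of 24 other TRP channel genes, 9 were tested, 5 with a positive and 4 with a negative log2 fold. The most abundant were Mcoln1, a lysosomal channel, at 34.3 FPKM in running and 31.5 FPKM in sedentary mice, Trpm7, a magnesium-permeable channel joined to a kinase, at 22.9 FPKM in running and 22.6 FPKM in sedentary mice, and Trpm2, a channel abundant in white blood cells, at 21.9 FPKM in running and 24.3 FPKM in sedentary mice. Trpv4 was below its relative Trpv2, at 15.1 FPKM in running and 15.9 FPKM in sedentary mice. The largest log2 fold of the list, 1.19, belonged to Trpc2 at 0.793 FPKM in running and 0.292 FPKM in sedentary mice, with q = 0.9997 in the authors' deposited table and an interval from 0 in sedentary mice. Of 6 other polycystin genes 2 were tested, Pkd2l2 at 5.87 FPKM in running and 4.89 FPKM in sedentary mice and Pkd1l3 at 2.67 FPKM in running and 2.16 FPKM in sedentary mice. Their log2 folds were 0.26 and 0.29, with p = 0.460 for Pkd2l2 and p = 0.542 for Pkd1l3 in the authors' deposited table. Both had q = 0.9997 there. Of 7 cilium genes 6 were tested, with a median log2 fold of 0.0012, and Ift20, a transport protein of the cilium, was the most abundant at 54.9 FPKM in running and 59.7 FPKM in sedentary mice.

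Gja1 made up most of the connexin signal. The 19 other connexin genes summed to 10.3 FPKM in running and 8.78 FPKM in sedentary mice, and 5 were listed at 0 in both groups. The most abundant of them were Gja4 (3.59 FPKM in running and 2.71 FPKM in sedentary mice) and Gja5 (2.12 FPKM in running and 1.79 FPKM in sedentary mice), connexins of arterial endothelium, and Gjc1 (2.90 FPKM in running and 2.42 FPKM in sedentary mice). All 5 tested partners of connexin 43 had a positive log2 fold, the highest that of Cav1, which coats caveolae, at 23.2 FPKM in running and 19.2 FPKM in sedentary mice, with a log2 fold of 0.27. The tyrosine kinase Src stood at 12.9 FPKM in running and 12.2 FPKM in sedentary mice, and the ubiquitin ligase Nedd4 at 109 FPKM in running and 105 FPKM in sedentary mice. Panx2 was not tested and stood at 0.0341 FPKM in running and 0.0293 FPKM in sedentary mice, so the pannexin signal came from Panx1 and Panx3.

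Of the ATP receptors, P2rx4 and P2rx1 were more abundant than P2rx7. P2rx4, a receptor of macrophages among other cells, stood at 18.8 FPKM in running and 18.7 FPKM in sedentary mice, and P2rx1, the platelet and smooth muscle receptor, at 16.9 FPKM in running and 18.1 FPKM in sedentary mice. Of 8 P2Y receptor genes 7 were tested, with a median log2 fold of 0.0063, and the highest was P2ry1, an ADP receptor, at 12.2 FPKM in running and 12.1 FPKM in sedentary mice. Of 11 other two-pore potassium channel genes 5 were tested, all with a positive log2 fold between 0.0049 and 0.29. Kcnk6 stood at 10.3 FPKM (8.15 to 12.4) in running and 10.1 FPKM (7.99 to 12.2) in sedentary mice. Its values were above those of Kcnk2, with intervals apart in sedentary mice but overlapping in running mice. Of 10 genes that handle ATP and prostaglandins 9 were tested, with 4 positive and 5 negative folds. Entpd1, which breaks down extracellular ATP, stood at 32.6 FPKM in running and 28.1 FPKM in sedentary mice, Slc17a9, which loads ATP into vesicles, at 9.88 FPKM in running and 11.7 FPKM in sedentary mice, and Enpp1, which makes pyrophosphate from ATP, at 9.17 FPKM in running and 8.37 FPKM in sedentary mice. Ptgs2, the inducible cyclooxygenase, was not tested and stood at 0.347 FPKM in running and 0.397 FPKM in sedentary mice.

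**Figure D4:**
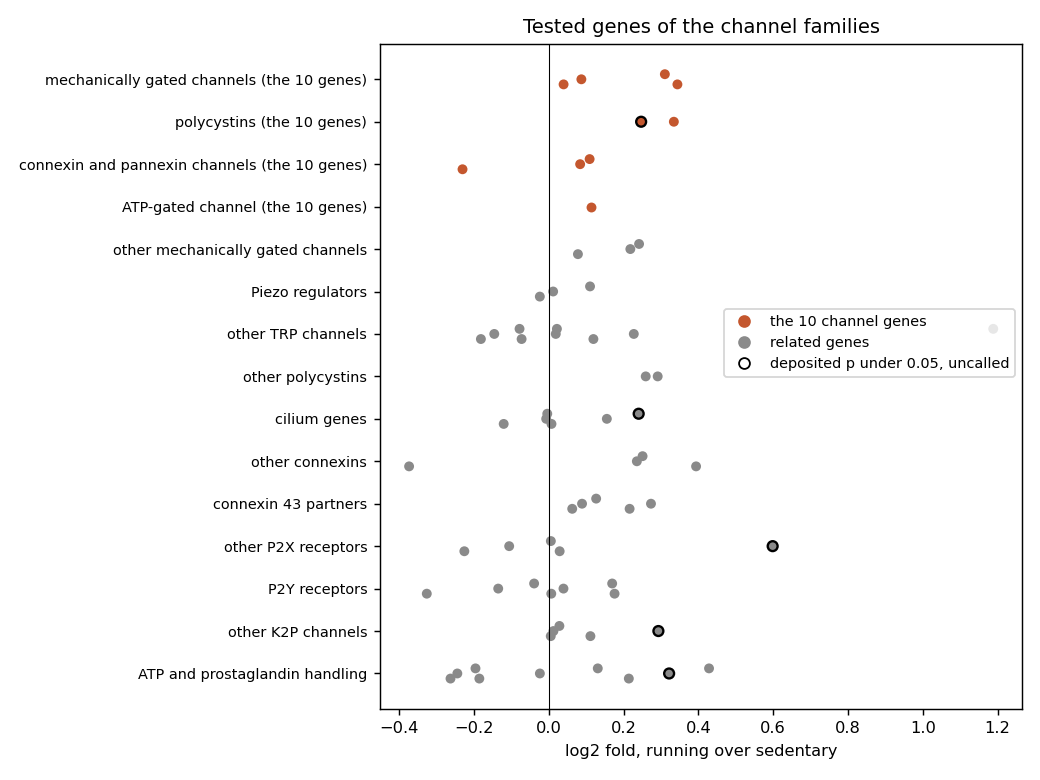
Log2 fold of running over sedentary mice (x axis) for the tested genes of each list (y axis), with the 10 channel genes in orange, related genes in grey and genes with a deposited p under 0.05 ringed in black. The ringed genes are Pkd2, Adcy6, P2rx2, Kcnk1 and Slco2a1, all to the right of 0 and none called at q under 0.05.

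The femur RNA holds many cell types, and in bulk RNA fewer cells of a type and less RNA per cell cannot be told apart. Bone cell markers were present, with osteoblast markers summing to 7091 FPKM in running and 6706 FPKM in sedentary mice and osteocyte markers to 429.7 FPKM in running and 342 FPKM in sedentary mice, although Pdpn was listed at 0 in both groups. All 8 osteoblast markers had a positive log2 fold (median 0.17, none called), and of 7 tested osteocyte markers 6 did (median 0.25), with Mepe and Sost called higher and Fgf23 called lower. Positive folds were also found for 9 of 9 skeletal muscle markers (median 0.28, sums of 1811 FPKM in running and 1493 FPKM in sedentary mice; Tcap, Myh2 and Myh1 called), 6 of 6 tested adipocyte markers (median 0.60, sums of 451 FPKM in running and 306 FPKM in sedentary mice; Fabp4, Cfd and Adipoq called) and 6 of 6 marrow stroma markers (median 0.22, sums of 1112 FPKM in running and 966 FPKM in sedentary mice; Adipoq, which is in both lists, and Lepr called). Endothelial markers were positive in 6 of 8 (median 0.15, sums of 182 FPKM in running and 174 FPKM in sedentary mice) and macrophage markers in 6 of 8 (median 0.10, sums of 621 FPKM in running and 579 FPKM in sedentary mice), with none called. All 8 neutrophil markers had a negative log2 fold (median -0.15, sums of 43347 FPKM in running and 51126 FPKM in sedentary mice, none called). The median log2 folds of the other lists were 0.08 for osteoclast, -0.0043 for chondrocyte, 0.04 for erythroid, -0.0020 for nerve and 0.01 for T and NK cell markers, with no call in any. The part of these markers in the folds of the channel genes was not tested.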

How the data were processed

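PolyA RNA of the femur, extracted by TRIzol, went into directional libraries, per the labels' protocols. Tools in the submitters' processing notes, without roles, are Cufflinks 2.2.1, HISAT2 2.2.1, Trimmomatic 0.39 and SAMtools 1.10, with build GRCm38. The deposited tables hold 1 FPKM per group with interval bounds, and the authors' log2 fold, test score (statistic), p-value and q-value, with columns and status words of Cuffdiff per the file headers. The tables have 0 columns of single libraries and so allow no test between mice, and the authors' q under 0.05 was the call. The 3 mice a group are separate samples per the labels.

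Log2 folds were computed as log2(FPKM + 0.1), which understates the change of low genes, with Python 3.11.15 and pandas 2.3.3. Lists were described by counts and medians, over all tested genes or those with FPKM of at least 1. Ahsp had no match. The code for folds and q adjustment was tested on simulated group values with large changes, which does not check the authors' p and q. All 10 channel genes are described, and of each related list every called gene, of which there were none, up to 3 of the most abundant and, chosen after their values were seen, genes with p under 0.05, Trpv2, Trpc2, Panx2, Ptgs2 and the untested mechanically gated channels. The channel genes and lists were chosen with earlier results of these data known. Fragment steps were read in genes of 1 exon and 1 transcript, over 1500 bp long and shortened by 250 bp. Coordinates are GENCODE vM21 (GRCm38), matched by Ensembl ID. The treatment of fragments with several matches was not stated. Alternatives covered the q threshold, a filter at FPKM of 1, separate intervals, the pseudocount and the scaling.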

Additional observations from a re-analysis of the deposited data

How the results depend on the processing

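No paired analysis was possible because no column belongs to a single mouse. Leaving out replicates was not run for the same reason, so a value that rests on 1 mouse would go unseen. The count of 0 called channel genes was 1 at an unadjusted p under 0.05 and 0 with q recomputed over genes with FPKM of at least 1. It was also 0 with q under 0.1, but the lowest deposited q of a channel gene was 0.726, which settled that count beforehand. With q under 0.01, or with separate intervals asked for on top of q under 0.05, the count could only stay at 0. The 146 calls over all genes became 69 when separate intervals were asked for on top of q under 0.05, and 876 at an unadjusted p under 0.05. They lay between 108 and 190 under the other 3 alternatives. The first 2 changes follow from a stricter and a looser demand. The median log2 fold of the channel genes, 0.11, ranged from 0.10 with a pseudocount of 1 to 0.15 when both groups were rescaled to the same total, which raises log2 folds by 0.04. It was 0.18 over the channel genes with lower bounds above 0, a setting chosen after seeing the data. The log2 fold of Panx1 lay between -0.23 and -0.19 under the alternatives. The settings that rescale values or change the pseudocount could not turn a positive log2 fold negative. These settings reuse the same pooled values and are no separate test of them. Intervals that reach 0 set the limit for Piezo1 in both groups and for Piezo2 in sedentary mice. For the other genes it is set by the bounds given beside each value.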

Other observations

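Other well-known genes share the deposited locus of Piezo1 on chromosome 8, and their intervals were wide at high levels. They were picked for naming after their values were seen. Acta1, the skeletal muscle actin, stood at 336 FPKM in running and 278 FPKM in sedentary mice, with an interval half-width of 110.0% in running and 112% in sedentary mice. Cox4i1, a subunit of cytochrome c oxidase, stood at 459 FPKM in running and 469 FPKM in sedentary mice, with a half-width of 117% in running and 118% in sedentary mice. Irf8, a transcription factor of the monocyte lineage, stood at 52.1 FPKM in running and 58.5 FPKM in sedentary mice, with a half-width of 143% in running and 148% in sedentary mice. Rpl13, a ribosomal protein gene, stood at 1247 FPKM in running and 1398 FPKM in sedentary mice, with a half-width of 73.3% in running and 67.5% in sedentary mice. The log2 folds of the 68 expressed genes at the locus had a median of 0.03, with 36 positive. For these genes, as for Piezo1, an uncalled result in the authors' deposited table comes with an interval wider than the median half-width of 32.9% in running and 33.2% in sedentary mice.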
